A study of Mus musculus with 6 samples.

Results

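The genes described here are metalloproteinases, plasminogen activators and their inhibitors in mammary tumors of mice with and without JAM-A. They were taken from a list of 36 genes by symbol, each represented by a single probe set: of those that the platform annotation pairs with exactly 1 symbol, the brightest on average across the 6 arrays was kept. This gave values for 34 of the 36, out of 19938 genes measured in this way. Mmp15 and Adamts2 had no such probe set and were not analysed here. The 34 comprise 16 matrix metalloproteinases (MMPs), 4 tissue inhibitors of metalloproteinases (TIMPs), 7 membrane proteases of the ADAM family, 4 secreted proteases of the ADAMTS family, and the genes Plau, Plaur and Plat of the plasminogen system.

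RNA of 6 early mammary tumors was hybridized to 6 Mouse Gene 1.0 ST arrays from Affymetrix. The 3 JAM-A-/- tumors (labelled JamA-, numbers 5333, 5346 and 5347) came from MMTV-PyMT JAM-A KO mice, which lack JAM-A in the whole animal, in tumor cells and stroma alike. The 3 JAM-A+/+ tumors (labelled JamA+, numbers 5369, 5370 and 5393) came from MMTV-PyMT mice, described as littermates. All of the mice carry polyoma virus middle T under the mouse mammary tumor virus promoter, which acts in mammary epithelium, so both groups hold oncogene-driven tumors and neither is a normal gland. The age of the mice at the time of this sampling is not given in the sources used here. The labels number the tumors but do not say whether those of 1 genotype were taken from different animals, and p-values therefore cover only the spread between these tumors.

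The JAM-A gene itself, F11r, was at 5.91, 5.55 and 6.53 on the log2 scale in JAM-A-/- tumors, against 10.1, 10.23 and 10.47 in JAM-A+/+ tumors (difference -4.27, standard error 0.24, limma adjusted p = 0.00667). No other probe set among 35557 passed the Benjamini-Hochberg adjustment. At gene level this is 0.00502% of the 19938 genes, and none of the 34 genes described here passed, although 6 of them had an unadjusted p under 0.05 (8.16% of all genes did). Luminal epithelial markers such as Epcam and Krt8 were measured in every tumor, at mean log2 levels over 9 markers of 11 to 11.51 in JAM-A-/- and of 10.96 to 11.31 in JAM-A+/+ tumors. The medians of the arrays lay between 6.23 and 6.34. Their interquartile ranges were 3.41, 3.61 and 3.74 in JAM-A-/- tumors 5333, 5346 and 5347 and 3.27, 3.5 and 3.53 in JAM-A+/+ tumors 5369, 5370 and 5393, so tumor 5369 had the narrowest and tumor 5347 the widest array. Over all 19938 genes the median log2 difference, JAM-A-/- minus JAM-A+/+, was 0.09, and 71% of genes lay above 0. The values below have to be read against this shift.

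Matrix metalloproteinases are zinc-dependent enzymes that are made as inactive proenzymes and cleave collagens, laminin, elastin and other matrix proteins. TIMPs block their active site. ADAM proteases shed the outer part of membrane proteins, growth factors and adhesion molecules among them, and ADAMTS proteases cleave proteoglycans and procollagens. Urokinase (Plau), held at the cell surface by its receptor (Plaur), and tissue-type plasminogen activator (Plat) turn plasminogen into plasmin, which degrades fibrin and can activate MMP proenzymes. In mammary tumors many of these genes are expressed by fibroblasts, macrophages and other stromal cells rather than by the carcinoma cells.

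Mmp13 was higher and its chromosomal neighbour Mmp12 lower in JAM-A-/- tumors, while Timp3, Adam12 and Adamts12 were higher by smaller margins. The signature criteria used here were a change of 1.3-fold or more together with an unadjusted limma p below 0.05. The thresholds were set after the span of the study's gene list, whose test is not described in the sources used here, so the limma p is not that of the study. These criteria were met higher in JAM-A-/- tumors by 4 of the 34 genes (11.8%), where 4.73% of all 19938 genes met them, and lower by 1 of 34 (2.94%), where 0.592% of all genes did. Over both directions 5.33% of all genes met them. The 5 genes were Mmp13, Timp3, Adam12 and Adamts12 on the higher side and Mmp12 on the lower. The groups did not overlap for 6 genes that were higher (17.6% of 34, against 12.4% of all genes) and for 2 that were lower (5.88%, against 2.55%), 15% of all genes being without overlap in either direction. Of the 34 genes, 29 (85.3%) had a difference above 0, against 71% of all genes, and their median was 0.22, against 0.09 over all genes. Measured from the median of all genes, 23 of the 34 lay above it. In bulk tumor RNA fewer cells of a type and less RNA per cell cannot be told apart.

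The number of higher genes depended on the tumors and on the scaling. It was 1 without tumor 5369 (Mmp13 alone), where 2.52% of all genes met the criteria higher, and 2 without tumor 5346 (Mmp13 and Plat), where 4.05% of all genes did. Without tumor 5370 it was 8, at 4.76% of all genes. The lower genes without tumor 5369 were 2, Mmp12 and Mmp3, at 0.587% of all genes. With quantile normalization over the probe sets that the annotation lists, 2 of the 34 met the criteria higher (Mmp13 and Adamts12) and 1 lower (Mmp12), while the counts over all genes moved to 359 higher and 303 lower, against 944 and 118 in the deposited values.

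**Figure D1:**
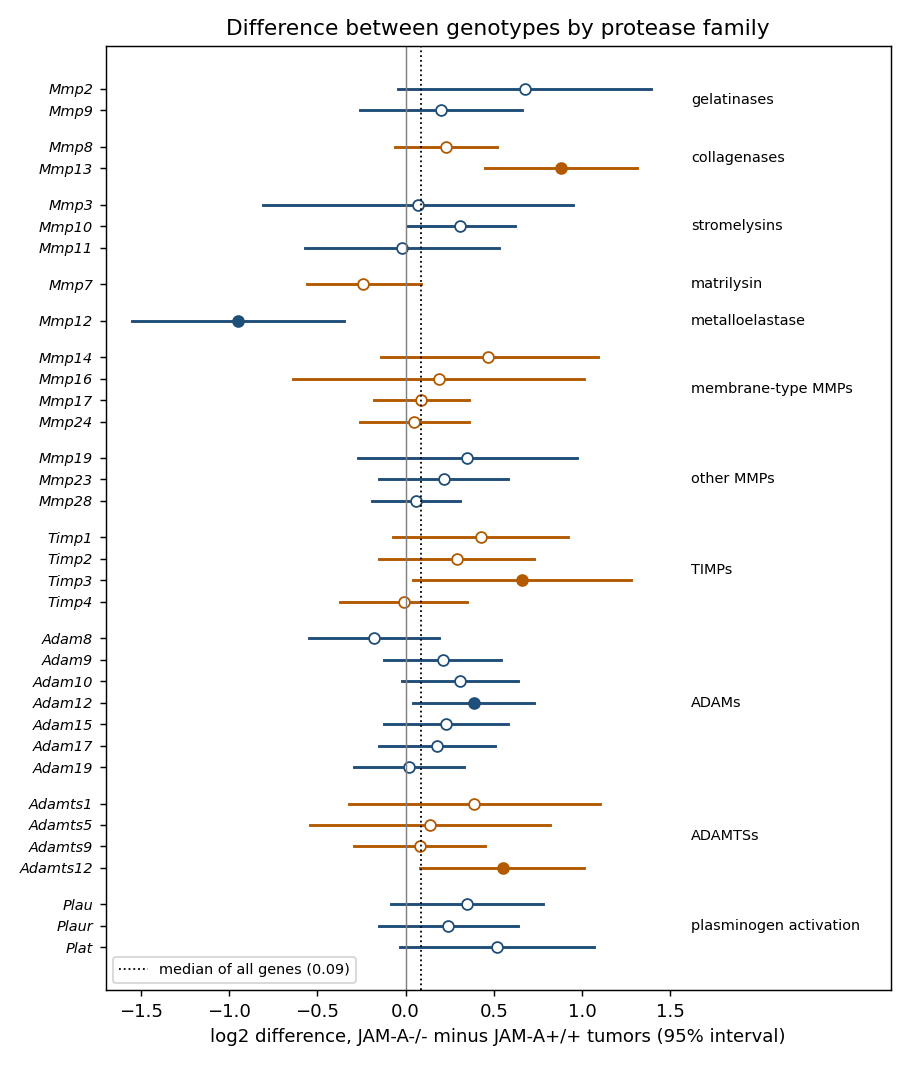
Log2 difference between JAM-A-/- and JAM-A+/+ tumors (horizontal axis) of the 34 genes by family (vertical axis), with 95% intervals from limma, colours alternating between families. Filled symbols met the signature criteria, and the dotted line is the median of all genes at 0.09. Mmp13 at 0.88 and Mmp12 at -0.95 lie farthest from 0 on either side.

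Of the collagenases, which cut fibrillar collagen, Mmp13 gave the clearest difference. Its log2 values were 8.47, 8.44 and 8.18 in JAM-A-/- tumors and 7.5, 7.81 and 7.14 in JAM-A+/+ tumors. All JAM-A-/- tumors lay above all JAM-A+/+ tumors. The means were 8.36 ± 0.16 for JAM-A-/- against 7.48 ± 0.34 for JAM-A+/+ (SD, n = 3 tumors each), a log2 difference of 0.88 (95% interval 0.45 to 1.31, adjusted p = 0.244 from limma), which is 1.84-fold. It lay between 0.71 and 1.04 when single tumors were left out, and it met the criteria under all 15 alternatives to the test, the scaling and the set of tumors. Mmp8, the neutrophil collagenase, stood at 3.89, 4.1 and 4.12 in JAM-A-/- and at 3.8, 3.93 and 3.69 in JAM-A+/+ tumors. These groups overlapped, at a difference of 0.23 (95% interval -0.06 to 0.52). Neutrophil markers had a median difference of -0.04 over 9 genes.

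Mmp12, the macrophage metalloelastase, ran the other way. It was 6.83, 7.49 and 6.36 in JAM-A-/- tumors and 7.84, 7.86 and 7.83 in JAM-A+/+ tumors. The JAM-A+/+ values were nearly equal, whereas the JAM-A-/- values were spread and all lay below them. The means were 6.89 ± 0.57 for JAM-A-/- against 7.84 ± 0.02 for JAM-A+/+ (SD, n = 3 tumors each), a log2 difference of -0.95 (95% interval -1.55 to -0.35, adjusted p = 0.323 from limma), or 0.52-fold. The difference was -0.68 without tumor 5347, the lowest, and -1.25 without tumor 5346, and it was -0.65 with array weights. With an unequal-variance test, which uses the spread of each group alone, Mmp12 no longer met the criteria.

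Markers of macrophages were measured beside it. Their mean log2 level over 15 genes, all of them measured, was 8.13, 8.42 and 8.7 in JAM-A-/- tumors and 7.9, 8.65 and 8.38 in JAM-A+/+ tumors. Differences were above 0 for 12 of 15 (80%, against 71% of all genes), with a median of 0.15 and none meeting the criteria. Tumor 5347, the lowest in Mmp12, was the highest in this list, and tumor 5369, the lowest in this list, had as much Mmp12 as the other JAM-A+/+ tumors. Adgre1, which encodes the macrophage antigen F4/80, differed by 0.02 (95% interval -0.55 to 0.59), and Cd68 by 0.13 (95% interval -0.37 to 0.63). In tumor 5333 both Mmp12 and the macrophage markers were low. The part of these markers in the Mmp12 difference was not tested.

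**Figure D2:**
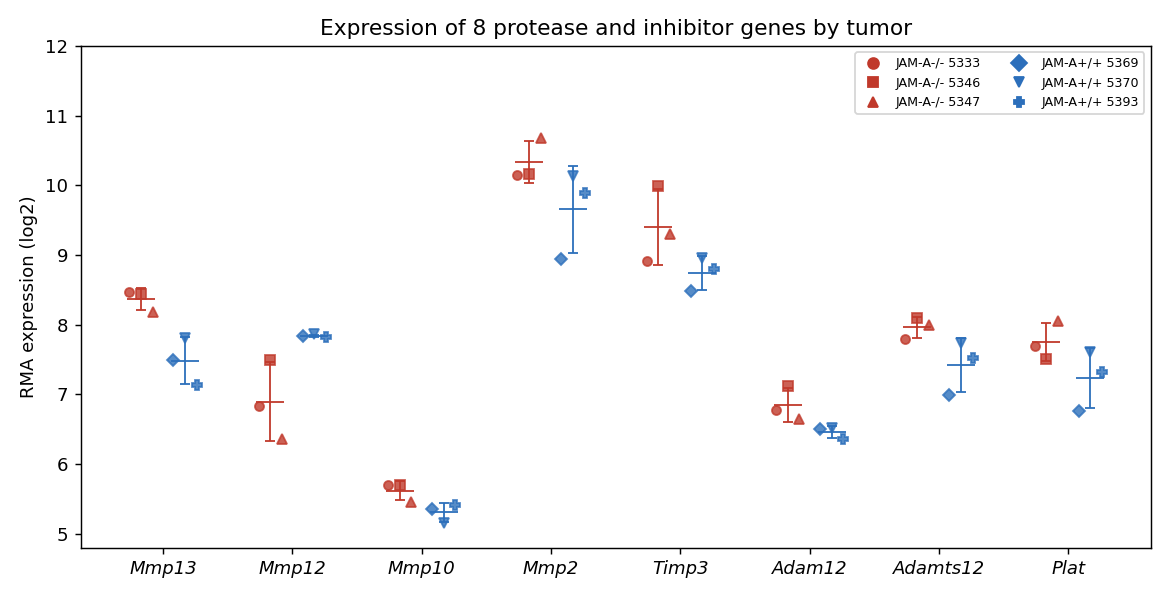
Log2 RMA values (vertical axis) for 8 genes (horizontal axis) in 3 JAM-A-/- tumors (red, left) and 3 JAM-A+/+ tumors (blue, right). Each symbol is 1 tumor, horizontal ticks are group means and bars 1 SD, and the groups overlap only for Timp3 and Plat.

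Mmp13 and Mmp12 are adjacent in an array of 10 MMP genes on chromosome 9, which holds no other protein-coding gene in the RefSeq annotation. In chromosomal order these are Mmp13, Mmp12, Mmp1b, Mmp3, Mmp1a, Mmp10, Mmp8, Mmp27, Mmp20 and Mmp7. The log2 differences of the 10 were 0.88, -0.95, -0.06, 0.07, 0.05, 0.31, 0.23, 0.23, -0.06 and -0.24 in that order. Only the first 2 met the signature criteria, and these adjacent genes differed in opposite directions. Mmp3, Mmp1a, Mmp10, Mmp8 and Mmp27 lay above 0 without meeting the criteria, and 71% of all genes lay above 0.

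**Figure D3:**
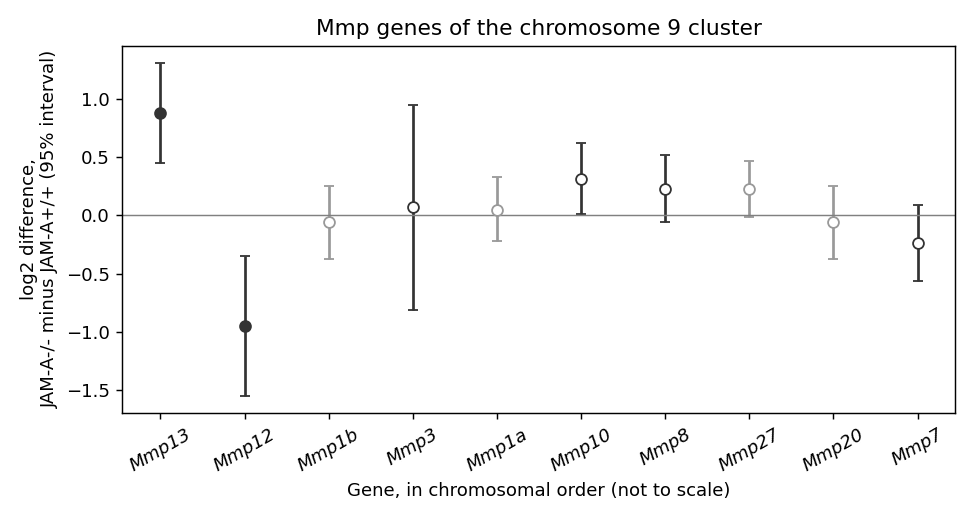
Log2 difference between JAM-A-/- and JAM-A+/+ tumors with 95% intervals (vertical axis) of the 10 MMP genes of the chromosome 9 array, in chromosomal order and not to scale (horizontal axis). Dark symbols are genes of the list, grey ones other MMP genes, and filled symbols met the criteria. Mmp13 and Mmp12, side by side at the left end, lie at 0.88 and -0.95.

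The sequences before the start sites of the listed genes in this array are shown, but not those of Mmp1b, Mmp1a, Mmp27 and Mmp20. The reason is that the neighbours Mmp13 and Mmp12 differed in opposite directions and several of these genes share a promoter element. AP-1, the Fos and Jun dimer, binds TGANTCA, and the TATA box TATAAA positions the start of transcription. The lines give the 150 bases before the annotated start, from RefSeq (GRCm38.p6, plus strand for all), with matches to TGANTCA and TATAAA in capitals. No match of one overlapped the other. Mmp12 and Mmp7 each have 2 annotated starts, and the other start of Mmp7, which held no match, is not printed.
Mmp13, chr9:7272364-7272513: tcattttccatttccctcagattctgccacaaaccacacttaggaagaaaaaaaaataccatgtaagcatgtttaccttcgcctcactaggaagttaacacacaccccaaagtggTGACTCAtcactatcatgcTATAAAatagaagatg
Mmp12, first start, chr9:7344247-7344396: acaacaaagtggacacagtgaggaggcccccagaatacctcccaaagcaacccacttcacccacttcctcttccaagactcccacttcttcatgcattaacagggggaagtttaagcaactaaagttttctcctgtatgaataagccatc
Mmp12, other start, chr9:7347224-7347373: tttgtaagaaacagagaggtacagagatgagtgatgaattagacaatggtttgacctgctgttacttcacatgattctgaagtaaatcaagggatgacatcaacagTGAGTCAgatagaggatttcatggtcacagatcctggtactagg
Mmp3, chr9:7445672-7445821: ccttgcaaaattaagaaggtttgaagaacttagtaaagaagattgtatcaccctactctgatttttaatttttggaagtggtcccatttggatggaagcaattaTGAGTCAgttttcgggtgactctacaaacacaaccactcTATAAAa
Mmp10, chr9:7502192-7502341: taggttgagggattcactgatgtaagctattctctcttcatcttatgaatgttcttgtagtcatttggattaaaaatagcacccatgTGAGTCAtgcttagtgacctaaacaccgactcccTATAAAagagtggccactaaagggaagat
Mmp8, chr9:7558279-7558428: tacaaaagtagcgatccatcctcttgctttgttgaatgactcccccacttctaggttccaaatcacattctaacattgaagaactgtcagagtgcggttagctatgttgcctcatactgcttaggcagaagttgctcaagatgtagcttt
Mmp7, first start, chr9:7691940-7692089: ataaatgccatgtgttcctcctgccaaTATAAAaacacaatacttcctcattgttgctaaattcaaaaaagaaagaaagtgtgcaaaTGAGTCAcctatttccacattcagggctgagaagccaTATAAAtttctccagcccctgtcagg

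Searched on both strands, TGANTCA stood in windows of 5 of these 6 genes (not Mmp8) and in those of Plaur and Adam19, 7 of the 24 listed genes for which a promoter was given. TATAAA stood in windows of 5 of the 24. Of all 32851 promoter windows of this length, 4.24% held TGANTCA, and 7.57% held TATAAA. These shares are per window, while a listed gene was counted if any of its windows held the match, so they are not directly comparable. TGANTCA began 35 bases before the annotated start in Mmp13, 44 in Mmp12 (its other start), 46 in Mmp3 and 63 in both Mmp10 and Mmp7. TATAAA began 16 bases before it in Mmp13, 7 in Mmp3, 29 in Mmp10 and 123 and 26 in Mmp7. In JAM-A-/- tumors Mmp13 was higher and Mmp12, with TGANTCA at its other start only, lower. Mmp3 differed by 0.07 (95% interval -0.81 to 0.95), Mmp10 by 0.31 and Mmp7 by -0.24. Mmp8, without TGANTCA, differed by 0.23. Any part of AP-1 in these differences was not tested. A match in these letters is a description and not a measured binding site.

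The stromelysins Mmp3 and Mmp10 cleave proteoglycans, laminin and other noncollagenous matrix proteins and can activate collagenase proenzymes. Mmp10 was 5.7, 5.7 and 5.46 in JAM-A-/- tumors and 5.36, 5.15 and 5.41 in JAM-A+/+ tumors. The groups did not overlap, and the difference of 0.31 (95% interval 0.01 to 0.62, adjusted p = 0.449 from limma) was under the fold of 1.3. Without tumor 5347 it was 0.39 and met the criteria, as it did with array weights and with quantile normalization between arrays (0.39 in both). Its probe set, like that of Mmp7, was among the 40% dimmest. Mmp3 was 7.03, 7.14 and 7.28 in JAM-A-/- and 6.09, 7.65 and 7.5 in JAM-A+/+ tumors. Its JAM-A-/- values lay between those of tumor 5369 and the other JAM-A+/+ tumors, so the difference was 0.07 with all tumors and -0.43 without tumor 5369. Mmp3 also had the largest spread within genotypes of the 34 genes (pooled SD 0.61). Mmp11, counted here with the stromelysins and expressed by fibroblasts around carcinoma cells, differed by -0.02 (95% interval -0.57 to 0.53). Mmp7, matrilysin, a small MMP of glandular epithelium, was 5.18, 4.96 and 5.21 in JAM-A-/- and 5.56, 5.28 and 5.22 in JAM-A+/+ tumors. It was the other gene without overlap on the lower side, by a margin of 0.01 and with a difference of -0.24 (adjusted p = 0.555 from limma).

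The gelatinases cleave denatured collagen and the type IV collagen of basement membranes. Mmp2 was 10.15, 10.16 and 10.68 in JAM-A-/- tumors and 8.94, 10.13 and 9.89 in JAM-A+/+ tumors. The lowest JAM-A-/- value was 0.02 above the highest JAM-A+/+ value, and tumor 5369 lay far below all others. The difference was 0.68 (standard error 0.31, adjusted p = 0.475 from limma) and 0.32 without tumor 5369, while without tumor 5370 it was 0.91 and met the criteria. It also met them with centring on array medians (0.73) and without the 40% dimmest probe sets (0.68). Mmp9, which neutrophils and macrophages also make, was 6.1, 5.96 and 5.44 in JAM-A-/- and 5.84, 5.42 and 5.65 in JAM-A+/+ tumors, with overlapping groups and a difference of 0.2 (95% interval -0.26 to 0.66). Without tumor 5347 the difference was 0.39 and met the criteria, and without tumor 5333 it was 0.06.

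Membrane-type MMPs are anchored at the cell surface, where Mmp14 activates the proenzyme of Mmp2 in a complex with Timp2. None of the 4 measured met the criteria with all tumors. Mmp14 was 10.06, 10.38 and 10.6 in JAM-A-/- and 9.28, 10.1 and 10.24 in JAM-A+/+ tumors, a difference of 0.47 (adjusted p = 0.536 from limma), or 0.18 without tumor 5369 and 0.66, meeting the criteria, without tumor 5393. Like Mmp2, it was lowest in tumor 5369 and highest in tumor 5347. Mmp16 was 7.75, 8.66 and 8.16 in JAM-A-/- and 8.78, 7.71 and 7.52 in JAM-A+/+ tumors. Here tumor 5369 was the highest of all, and the pooled SD was 0.58. Mmp17, which is held by a lipid anchor, was steady at 6.05, 6.07 and 6.03 in JAM-A-/- and at 5.92, 5.86 and 6.11 in JAM-A+/+ tumors (difference 0.09, 95% interval -0.18 to 0.36), and Mmp24 differed by 0.05.

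Of the remaining MMPs, Mmp19 was 6.62, 6.62 and 6.92 in JAM-A-/- and 5.94, 7.01 and 6.17 in JAM-A+/+ tumors, a difference of 0.35 with overlapping groups. It was 0.66 and met the criteria without tumor 5370, and it was 0.13 without tumor 5369. Mmp23 was 5.89, 6.08 and 6.17 in JAM-A-/- and 5.82, 6.08 and 5.59 in JAM-A+/+ tumors, a difference of 0.22 with overlapping groups. Mmp28, epilysin, which is known from skin and other epithelia, differed by 0.06 (95% interval -0.19 to 0.31). Taking all 16 MMPs, 13 (81.2%) had differences above 0, against 71% of all genes, and the median was 0.19, against 0.09. The criteria were met by 1 in each direction (6.25%), against 4.73% of all genes higher and 0.592% lower.

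Among the inhibitors, Timp3, which is bound to the matrix and inhibits ADAM proteases as well as MMPs, was 8.92, 9.99 and 9.3 in JAM-A-/- tumors and 8.48, 8.95 and 8.8 in JAM-A+/+ tumors. Tumor 5346 stood well above the rest, and the groups overlapped by 0.03, tumor 5333 lying just below tumor 5370. The means were 9.4 ± 0.54 for JAM-A-/- against 8.74 ± 0.24 for JAM-A+/+ (SD, n = 3 tumors each), a difference of 0.66 (95% interval 0.04 to 1.28, adjusted p = 0.441 from limma). It was 0.37 without tumor 5346 and 0.9 without tumor 5333, and it missed the criteria under 8 of 15 alternatives, among them leaving out tumor 5346, 5347, 5369 or 5393. Timp1, a secreted inhibitor of most MMPs, was 8.21, 8.04 and 8.22 in JAM-A-/- and 7.37, 8.22 and 7.6 in JAM-A+/+ tumors. The JAM-A-/- tumors lay close together and tumor 5370 was level with them, at a difference of 0.43 (adjusted p = 0.504 from limma). It was 0.67 and met the criteria without tumor 5370, and it was 0.25 without tumor 5369. Timp1 met them too with centring on array medians (0.48). Timp2 differed by 0.29 (95% interval -0.15 to 0.73) and Timp4 by -0.01 (95% interval -0.37 to 0.35).

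The ADAM family includes Adam10 and Adam17, sheddases that release ligands of the EGF receptor, Notch fragments and junction proteins, JAM-A among them. Adam12, which is expressed in carcinoma cells and activated stroma, was 6.77, 7.12 and 6.65 in JAM-A-/- tumors and 6.5, 6.52 and 6.36 in JAM-A+/+ tumors. The groups did not overlap, at means of 6.85 ± 0.24 for JAM-A-/- against 6.46 ± 0.09 for JAM-A+/+ (SD, n = 3 tumors each). The difference of 0.39 (95% interval 0.04 to 0.73, adjusted p = 0.429 from limma), 1.31-fold, lay just past the fold threshold of 1.3 and missed the criteria under 7 of 15 alternatives, among them leaving out tumor 5346 (0.25), 5369, 5370 or 5393. Adam10 was 10.27, 10.46 and 10.65 in JAM-A-/- and 9.98, 10.22 and 10.25 in JAM-A+/+ tumors. Its groups were separated by 0.02, at a difference of 0.31 (adjusted p = 0.478 from limma), which was 0.41 and met the criteria without tumor 5333, and 0.09 with quantile normalization over listed probe sets. Adam17 differed by 0.18 (95% interval -0.15 to 0.51) and by -0.03 under that normalization, so its direction was not settled. Adam15 and Adam9 differed by 0.23 and 0.21, Adam19 by 0.02, and Adam8, an ADAM of leukocytes, by -0.18 (95% interval -0.55 to 0.19).

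Of the ADAMTS family, Adamts12 was 7.8, 8.09 and 8 in JAM-A-/- tumors and 6.99, 7.74 and 7.52 in JAM-A+/+ tumors. The groups did not overlap, although the lowest JAM-A-/- value was 0.06 above the highest JAM-A+/+ value. The means were 7.96 ± 0.15 for JAM-A-/- against 7.42 ± 0.39 for JAM-A+/+ (SD, n = 3 tumors each), a difference of 0.55 (95% interval 0.08 to 1.01, adjusted p = 0.416 from limma), or 0.33 without tumor 5369. It fell short of the criteria under 5 of 15 alternatives. These were leaving out tumor 5369, 5346 (0.48) or 5347 (0.53), and the equal-variance and unequal-variance tests. Adamts1, a protease that cleaves versican and aggrecan, was 7.09, 8.41 and 7.59 in JAM-A-/- and 7.41, 7.4 and 7.1 in JAM-A+/+ tumors. Its difference of 0.39 was 0.04 without tumor 5346, the highest, and 0.7 without tumor 5333, the lowest, where it met the criteria. With array weights it was 0.78 and met them too. Adamts5, an aggrecanase, differed by 0.14 (95% interval -0.54 to 0.82), and by -0.17 without tumor 5369. Adamts9 is measured by 6 probe sets on the array, and none of their differences had an unadjusted p under 0.05 (0.08 for the one used here).

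All 3 genes of plasminogen activation had differences above 0, as did 71% of all genes. None met the criteria with all tumors and all probe sets in the deposited values. Plat was 7.7, 7.51 and 8.05 in JAM-A-/- and 6.76, 7.61 and 7.32 in JAM-A+/+ tumors, a difference of 0.52 (95% interval -0.03 to 1.07, adjusted p = 0.473 from limma). Plau was 7.92, 8.07 and 8.08 in JAM-A-/- and 7.27, 7.93 and 7.82 in JAM-A+/+ tumors, a difference of 0.35 (adjusted p = 0.515 from limma). In both, tumor 5369 was the lowest of the 6, and without it the differences were 0.29 for Plat and 0.15 for Plau. Without tumor 5370 they were 0.71 for Plat and 0.48 for Plau, and both met the criteria, as Plat also did without tumor 5346 (0.64). Plat met them too with centring on array medians (0.58) and without the 40% dimmest probe sets (0.52). Plaur, the urokinase receptor, was highest in tumor 5346, at 7.13, and differed by 0.24 (95% interval -0.15 to 0.64). The difference was 0.09 without tumor 5346 and 0.38 without tumor 5347.

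Tumor 5369 was the lowest of the 6 for 19 of the 34 genes (55.9%), against 36.2% of all genes. The mean deviation of the 34 genes (each gene taken relative to its average) was 0, 0.19 and 0.14 in JAM-A-/- tumors 5333, 5346 and 5347 and -0.29, 0.06 and -0.09 in JAM-A+/+ tumors 5369, 5370 and 5393. Among the JAM-A+/+ tumors alone it was the lowest for 19 of 34, against 50.6% of all genes. By family, tumor 5369 stood at -0.53 for the plasminogen genes, -0.52 for the stromelysins, -0.47 for the gelatinases, -0.45 for the ADAMTS genes, -0.43 for the TIMPs and -0.21 for the ADAM genes, the lowest of the 6 tumors in each. It was not the lowest for the collagenases (-0.27, against -0.51 in tumor 5393), the remaining MMPs (-0.24, against -0.28 in tumor 5393) or the membrane-type MMPs (-0.08, against -0.16 in tumor 5370), and it was the highest for Mmp7 (0.33). Most marker lists were low in that tumor too, adipocytes at -1.14, fibroblasts at -0.7, endothelium at -0.5, macrophages at -0.46, luminal epithelium at -0.28 and basal cells at -0.24, each the lowest of the 6. Skeletal muscle (-0.35), mast cells (-0.3), T cells (-0.05) and neutrophils (-0.02) were lower in at least 1 other tumor. Over 10 fibroblast markers the mean log2 level was 9.76, 9.95 and 10.31 in JAM-A-/- and 9.14, 10.04 and 9.84 in JAM-A+/+ tumors. Their median difference was 0.35, and 9 of 10 lay above 0, against 71% of all genes. Where 4.73% of all genes met the criteria higher, 2 of the 10 markers did. Pdgfra, the fibroblast receptor for platelet-derived growth factor, was one of these, at 8.86, 8.94 and 9.03 in JAM-A-/- and 8.15, 8.81 and 8.52 in JAM-A+/+ tumors. The part of these markers in the protease differences was not tested. Without tumor 5369 the median difference of the 34 genes was 0.16, against 0.07 over all genes, and Mmp13 (0.89) and Mmp12 (-0.95) kept their differences.

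**Figure D4:**
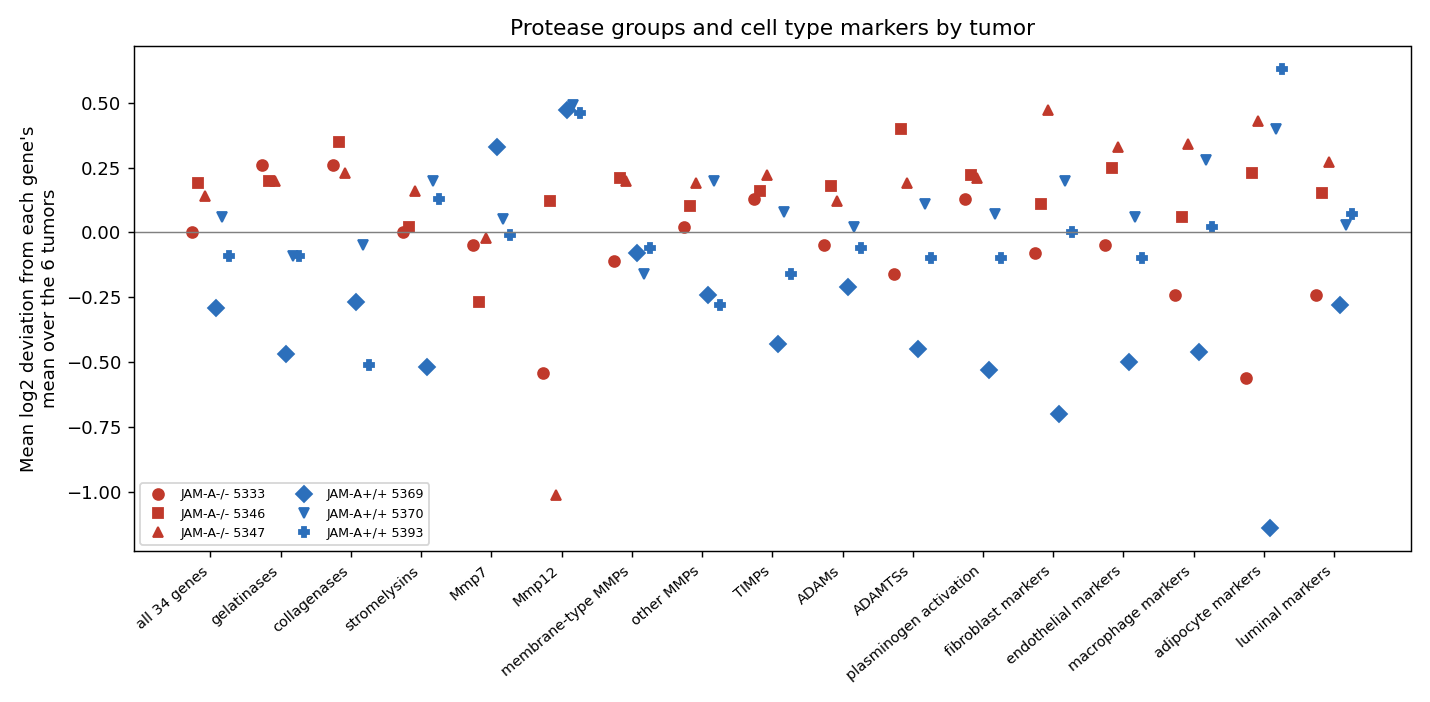
Mean log2 deviation of genes from their 6-tumor averages (vertical axis) for the 34 genes, their families and 5 lists of cell type markers (horizontal axis), in 3 JAM-A-/- (red, left) and 3 JAM-A+/+ tumors (blue, right), 1 symbol per tumor. Tumor 5369 (blue diamond) is lowest in most groups, but not in the collagenases, membrane-type MMPs and other MMPs, and it stands above 0 for Mmp7 (0.33) and Mmp12 (0.47).

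The medians of the differences for the other marker lists were 0.16 for luminal epithelium, 0.08 for basal and myoepithelial cells, 0.35 for endothelium, 0.68 for skeletal muscle, 0.07 for adipocytes, -0.04 for T cells and 0.04 for mast cells. Of these lists, 2 of 9 basal, 2 of 9 endothelial and 3 of 8 muscle genes met the criteria, all higher, as did 4.73% of all genes. The 2 basal genes were Acta2 (0.9) and Cnn1 (0.44). Differences of the other basal genes, Krt5, Krt14 and Trp63 among them, lay between -0.03 and 0.19. The muscle markers had their highest mean in tumor 5346 (7.88), against 7.08 and 7.49 in tumors 5333 and 5347 and 6.74, 7.33 and 6.04 in JAM-A+/+ tumors 5369, 5370 and 5393. Tumor 5346 was also the highest for 7 of the 34 genes (20.6%, against 16.2% of all genes). These were Timp3, Adamts1, Adam12, Adamts12, Adam15, Plaur and Mmp28. The part of the muscle markers in these genes was not tested.

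Other genes of proteolysis at the cell surface and in the matrix, 71 measured of a list of 73, had a median difference of 0.10, close to that of all genes. Of these, 52 (73.2%) lay above 0, against 71% of all genes. The criteria were met higher by 4 of them (5.63%), close to the 4.73% of all genes, so the list as a whole did not stand out, and lower by none. None passed the limma adjustment (8 had an unadjusted p under 0.05). Hpn, which encodes hepsin, a transmembrane serine protease that can activate pro-urokinase, was 8.48, 8.69 and 8.62 in JAM-A-/- and 8.04, 7.85 and 7.81 in JAM-A+/+ tumors. Its groups were well separated, at a difference of 0.70 (standard error 0.12, adjusted p = 0.208 from limma). Adamtsl2, an ADAMTS-like protein without protease activity, differed by 0.82 (adjusted p = 0.369 from limma). Bmp1, which removes the carboxyl propeptide of fibrillar procollagens, differed by 0.61 (adjusted p = 0.411 from limma), and Pcolce, which enhances that cleavage, by 0.59 (adjusted p = 0.458 from limma). Bmp1 and Pcolce were lowest in tumor 5369. Bmp1 no longer met the criteria without tumor 5346, 5347, 5369 or 5393, nor Pcolce without any one of tumors 5333, 5346, 5347, 5369 or 5393. Hpn and Adamtsl2 met them whichever tumor was left out, but with the equal-variance and unequal-variance tests only Hpn did.

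**Figure D5:**
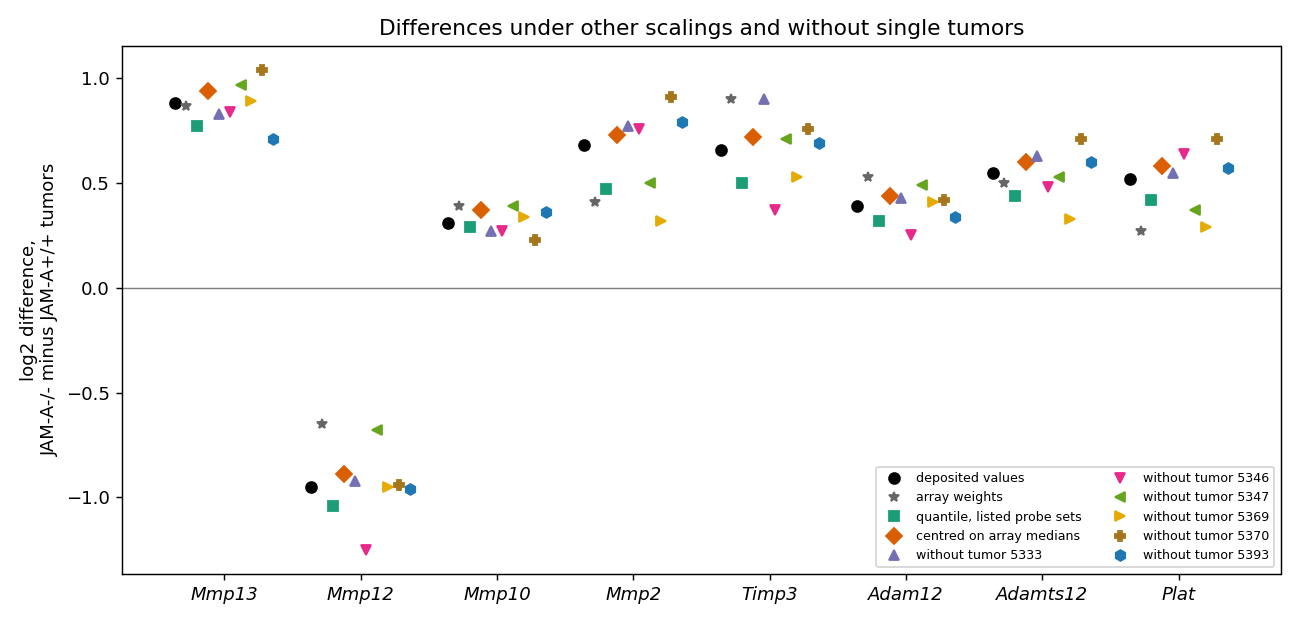
Log2 difference between JAM-A-/- and JAM-A+/+ tumors (vertical axis) of 8 genes (horizontal axis) in the deposited values, with array weights, under 2 other scalings and without each tumor in turn. Mmp13 ranges from 0.71 to 1.04 and Mmp12 from -1.25 to -0.65, while Mmp2 ranges from 0.32 to 0.91 and Timp3 from 0.37 to 0.9.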

How the data were processed

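The authors deposited log2 values, rounded to 2 decimals, and the submitters' processing notes name RMA and Affymetrix Expression Console 1.1. The settings of that step are not stated by the sources used here. RMA puts the arrays on a common scale, so total RNA is not measured, although the spread of the deposited values still differed between arrays, and the number of arrays, 3 per genotype, limits the precision. Tumors were grouped by their titles. The tissue label of tumor 5347 does not mention the loss of JAM-A, while its title and genotype do.

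All 35557 probe sets were fitted with limma 3.58.1 in R 4.3.3 (empirical Bayes moderation without covariates, p-values adjusted by Benjamini-Hochberg over the same 35557), JAM-A-/- minus JAM-A+/+. The annotation pairs 21789 probe sets with 1 symbol and 1621 with several, and 12147 are not listed. All 34 symbols matched RefSeq (GRCm38.p6) through gene identifiers. An exact permutation test of 1 gene could not go below p = 0.1 with 3 against 3 tumors. The genes, families and lists, the markers of 10 cell types included, were chosen with earlier results of these data known. Genes named with the value of every tumor were those meeting the criteria in any scaling, the 2 with the smallest p in each family and the 3 with the widest spread within genotypes. The fit was tested on simulated data. The alternatives were other tests, priors, array weights, scalings, filters, fold thresholds and probe set choices, and leaving out each tumor.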

Additional observations from a re-analysis of the deposited data

How the results depend on the processing

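No paired analysis was possible because the tumor numbers differ between the genotypes and pair no samples. Higher genes of the 34 meeting the criteria numbered 4, at 4.73% of all genes, a share that moved with the settings. They numbered 1 with the equal-variance test (2.46% of all genes), 1 with the unequal-variance test (1.73%), 2 with quantile normalization over listed probe sets (1.8%), 7 with centring on array medians (8.13%), 2 at a fold of at least 1.5 (1.22%), and 1 to 8 when each tumor was left out (2.52% to 10.1%). Lower ones numbered 0 with the unequal-variance test and 1 to 2 without single tumors, against 1. The median of the 34 stayed above 0 under every scaling run (0.09 to 0.28) and lay between 0.16 and 0.31 without single tumors. The median of all genes moved too. It was 0 with quantile normalization over listed probe sets, 0.07 with that between arrays and 0.15 with centring on array medians. The 34 genes stood at 0.09, 0.16 and 0.28 in these settings. For the other proteolysis genes the alternatives were chosen after seeing the data, and both directions were counted together. Their count of 4 was 1 (equal variances), 1 (unequal-variance), 8 (array weights), 10 (array medians), 8 (no fold threshold) and 3 to 9 without single tumors. Adam1a and Astl, lower in JAM-A-/- tumors (-0.34 and -0.35), were among the 8 in both settings. Astl also counted without tumors 5347 and 5369, and Adam1a without tumor 5333. Of all genes, 6.57% met the criteria higher and 1.02% lower with array weights, and 7.18% and 0.978% with no fold threshold. The fall of F11r, -4.27, had adjusted p of 0.453 and 0.735 with the equal-variance and unequal-variance tests, and without single tumors it was -4.54 to -4.05, its adjusted p passing 0.05 without tumors 5333, 5369, 5370 and 5393 (0.0507 to 0.0839). The sign turned for genes near 0. With array weights Mmp3 was -0.18 and Adam19 -0.06. With quantile normalization between arrays Timp4 was 0.05 and Adam17 -0.02, and over listed probe sets Adam17 was -0.03, Adam19 -0.05 and Adamts9 -0.01. With centring on array medians Mmp11 was 0.04 and Timp4 0.05. Without single tumors Mmp3 ranged from -0.43 to 0.36, Mmp11 from -0.24 to 0.17, Mmp16 from -0.05 to 0.58, Mmp24 from -0.05 to 0.11, Timp4 from -0.09 to 0.15, Adam19 from -0.08 to 0.08, Adamts5 from -0.17 to 0.43 and Adamts9 from -0.06 to 0.21. The causes were not tested. Probe sets near background cannot be told from unexpressed genes, since no detection calls were used here. Those of Mmp7, Mmp8, Mmp10, Mmp28 and Timp4 were among the 40% dimmest.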
